A study of Saccharomyces cerevisiae with 16 samples.

Results

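The 10 genes described here encode the first steps of glycolysis in the budding yeast Saccharomyces cerevisiae. HXK1, HXK2, GLK1 and EMI2 code for kinases, or a putative kinase, of glucose. PGI1, PFK1, PFK2, FBA1 and TPI1 code for the enzymes that follow, down to the triose phosphates, and PFK26 codes for the kinase that makes fructose 2,6-bisphosphate. The genes were taken by name from this pathway, 10 of 6002 annotated protein-coding genes, and all 10 passed the filter on low counts that left 5527 genes for testing.

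The transcripts were measured as 3′ end tags with 3′T-fill, in which sequencing starts at the poly(A) tail and each read marks where a messenger RNA ended. A messenger RNA gives about 1 tag whatever its length, so tag levels were not divided by length. Whether the sites of different genes were captured equally well was not tested, so levels set side by side between genes are levels of tags. All groups were wild-type BY4741, a laboratory strain that is haploid, of the a mating type and mutant in the auxotrophic marker genes his3, leu2, ura3 and met15, grown in YPD (rich medium with 2% glucose) at 30 °C. In 10 of the 14 libraries compared, at most 1 cell had been enclosed in each alginate particle and had grown there into a microcolony. Of these, 3 libraries held unsorted particles fixed in ethanol and 2 held unsorted particles that were not fixed. A further 3 held big colonies and 2 held small colonies (replicates 2 and 4), both fixed in ethanol. The other 4 were batch cultures without particles, 2 at Abs600 0.5 and 2 at Abs600 2. Big and small colonies were separated by size in a large-particle flow cytometer after fixation. The labels give neither an age for the microcolonies nor the density they had reached, and they do not say how cultures were shared between groups.

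Glucose enters glycolysis when a kinase adds a phosphate to it. In yeast this can be done by the hexokinases Hxk1 and Hxk2, which also accept fructose, and by the glucokinase Glk1. Emi2 is a paralog of Glk1 and is annotated as a putative glucokinase. HXK2 is known as the isoform of cells growing on ample glucose, where Hxk2 also takes part in glucose repression, and HXK1 and GLK1 are known as genes held down by glucose. Pgi1 isomerises glucose 6-phosphate to fructose 6-phosphate. Pfk1 and Pfk2 are the alpha and beta subunits of phosphofructokinase, which is activated by fructose 2,6-bisphosphate, the product of Pfk26. Fba1, the aldolase, splits fructose 1,6-bisphosphate, and Tpi1 interconverts the resulting triose phosphates.

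Library totals ranged from 1506960 to 7871184 tags, and protein-coding genes held 88.8% to 96.3% of them. CPM below are gene tags per 1000000 after TMM scaling, which sets the libraries to a common scale. Across all genes, replicates of a group correlated at 0.877 to 0.949 on log2 CPM, except the 2 small-colony libraries, which correlated at 0.533. Small replicate 4 was barcoded in a separate index read, and its sample type label reads as unfixed although its title and description call it fixed small colonies, so it was grouped by the title. It also held 137, 63 and 83 tags of the alpha-cell genes MF(ALPHA)1, MF(ALPHA)2 and STE3, against at most 19, 8 and 6 in the other 13 libraries, while the 5 a-cell genes MFA1, MFA2, STE2, STE6 and BAR1 had tags in all 14. Of the marker genes that the strain lacks in whole or in part, LEU2 had 519 tags in small replicate 4 against at most 7 in the other 13 libraries, and MET17, another name of met15, had 3 against 0. URA3 had 1 to 84 tags and HIS3 327 to 2458 in the 14 libraries. The alpha-cell and LEU2 tags of the library labelled small replicate 4 go against the labelled genotype, so results on small colonies are given by library. The 30 nt of genome ending at each tag position occurred once in the genome for every tag of the 10 genes in the 12 libraries without small colonies, so the hexokinase paralogs did not share tags. In bulk samples, fewer cells of a type and less RNA per cell cannot be told apart.

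HXK1 had the widest range of the 10 genes. In unfixed particles it stood at 2033 and 1959 CPM, and in the batch cultures at Abs600 0.5 at 49.8 and 73.8 CPM. It rose 32.3-fold in unfixed particles (log2 fold change 5.02, SE 1.00, adjusted p 0.0164 in the edgeR quasi-likelihood test with Benjamini-Hochberg adjustment). GLK1 stood at 1684 and 1089 CPM in unfixed particles and at 107 and 66.8 CPM at Abs600 0.5. It rose 15.9-fold (log2 fold change 3.99, SE 0.96, edgeR adjusted p 0.0422). The libraries of the groups did not overlap for either gene.

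EMI2 followed in size but not past the threshold. Its levels were 585 and 620 CPM in unfixed particles and 67.6 and 45.0 CPM at Abs600 0.5, also without overlap, and its log2 fold change was 3.42 (SE 0.85, edgeR adjusted p 0.0524). HXK2, the isoform of growth on glucose, was at 163 and 302 CPM in unfixed particles and at 238 and 251 CPM at Abs600 0.5, so its groups overlapped. Its log2 fold change was -0.07 (95% interval -1.85 to 1.70). Thus 2 of the 10 genes were called higher and none lower, where 1.94% of all genes tested were called, 0.76% higher and 1.18% lower. The median log2 fold change of the 10 genes was 0.24, against -0.01 over all genes tested.

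Both calls were lost when a library was left out. With any 1 of the 4 libraries of this comparison left out, neither HXK1 (log2 4.75 to 5.32, edgeR adjusted p 0.0636 to 0.182) nor GLK1 (log2 3.64 to 4.37, adjusted p 0.0901 to 0.395) passed. With the 2 small-colony libraries left out of the fit, HXK1, GLK1, EMI2 and PFK26 all passed, and 12.4% of all genes did.

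**Figure D1:**
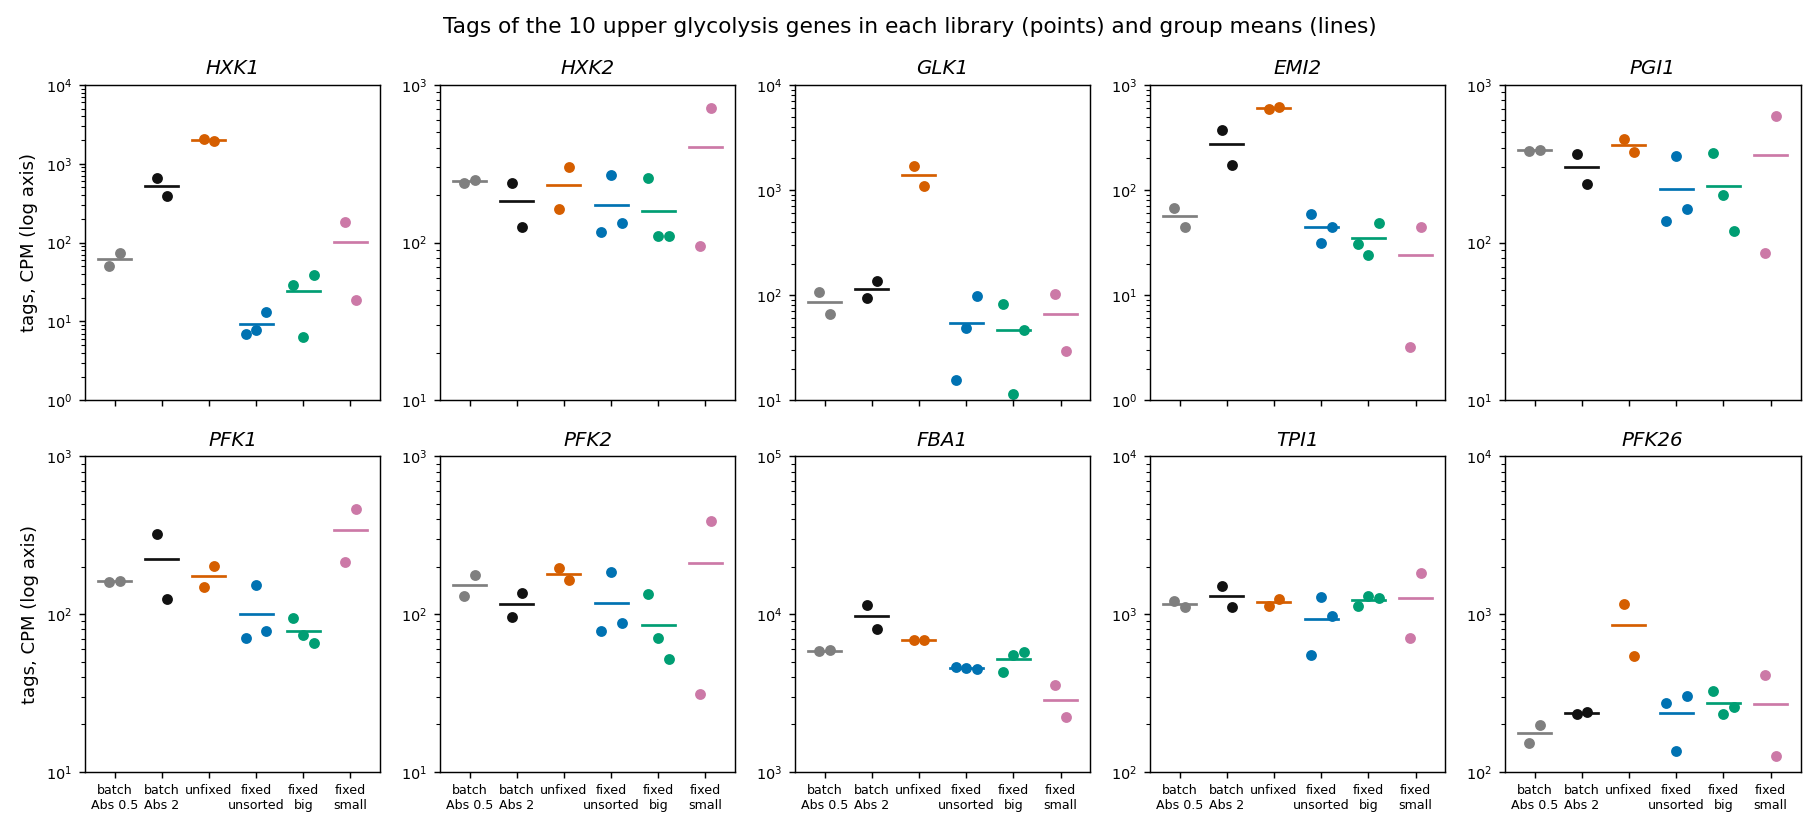
CPM (log axis) of each of the 10 genes in the 14 libraries, by group (batch culture at Abs600 0.5 and 2, unfixed particles, fixed unsorted particles, fixed big and fixed small colonies). Points are libraries and lines are group means. HXK1, GLK1 and EMI2 are highest in the 2 unfixed libraries, at 2033 and 1959 CPM for HXK1, while HXK2, PGI1 and TPI1 stay within a narrower range outside the small colonies.

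In fixed unsorted particles the same 3 kinase genes were low. HXK1 stood at 6.89, 7.82 and 13.2 CPM, below both unfixed libraries and also below both libraries at Abs600 0.5. GLK1 stood at 15.7, 48.7 and 99 CPM and EMI2 at 58.7, 31.3 and 44.7 CPM. All 3 fixed libraries lay under both unfixed libraries for each of these genes. HXK1 was 213-fold lower in fixed than in unfixed unsorted particles (log2 fold change -7.74, SE 0.95, edgeR adjusted p 0.000511), the 5th smallest p-value of all genes. The 3 fixed libraries held only 35, 9 and 38 HXK1 tags, so the size of this fold rests on few tags. GLK1 was 25.5-fold lower (log2 -4.67, SE 0.84, edgeR adjusted p 0.00536) and EMI2 13.3-fold lower (log2 -3.74, SE 0.74, edgeR adjusted p 0.00755).

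These 3 of the 10 genes fell and none rose, where 5.84% of all genes tested were called and 2.46% were called lower. The median log2 fold change of the 10 genes was -0.86, against 0.02 over all genes tested. HXK2 stood at 118, 270 and 134 CPM in fixed unsorted particles, overlapping the unfixed libraries, with a log2 fold change of -0.42 (95% interval -2.03 to 1.19). HXK1 passed with any 1 of the 5 libraries left out. The log2 fold change of GLK1 ran from -4.22 without fixed unsorted replicate 1 to -5.44 without fixed unsorted replicate 3, and GLK1 did not pass without unfixed replicate 1 (edgeR adjusted p 0.0563), and EMI2 did not pass without unfixed replicate 1 (0.0591) or fixed unsorted replicate 2 (0.0507). This comparison and the one above share the 2 unfixed libraries. Fixation, handling and any difference in culture between the fixed and the unfixed particles cannot be told apart.

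Set directly against batch culture at Abs600 0.5, none of the 10 genes passed the test in fixed unsorted particles. The edgeR test called 0.0% of all genes in this comparison, with 119 genes at an unadjusted p under 0.05, and DESeq2 called 1 gene (0.0181%). HXK1 was the only member at an unadjusted p under 0.05, with a log2 fold change of -2.72 (SE 0.81, 95% interval -4.58 to -0.86). All 3 fixed libraries lay below both batch libraries for HXK1, PGI1, PFK1 and FBA1. Against batch culture at Abs600 2, HXK1 fell by 5.80 on the log2 scale (SE 0.88, edgeR adjusted p 0.0181) in fixed unsorted particles, where 0.0724% of all genes were called. No library was left out in turn for fixed or unfixed particles against Abs600 2. Against the same denser culture, unfixed particles had a log2 difference of 1.94 for HXK1 (SE 0.87, edgeR adjusted p 0.358) and of 3.60 for GLK1 (SE 0.94, edgeR adjusted p 0.0860), and none of the 10 genes passed, where 0.742% of all genes did.

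Between the batch densities, HXK1 and EMI2 had the largest differences of the 10 genes. HXK1 was at 656 and 388 CPM at Abs600 2, a log2 fold change of 3.08 over Abs600 0.5 (SE 0.91). EMI2 was at 372 and 174 CPM, a log2 fold change of 2.28 (SE 0.82). Both groups were free of overlap for both genes, but neither passed, with edgeR adjusted p-values of 0.976 for HXK1 and 1.00 for EMI2 and unadjusted p-values of 0.00398 and 0.0132. The test called 0.0% of all genes here, with 191 genes at an unadjusted p under 0.05, and DESeq2 called 6 (0.109%). GLK1 stood at 93.1 and 135 CPM at Abs600 2, overlapping the sparser cultures, with a log2 fold change of 0.39 (95% interval -1.59 to 2.37). In a fit of the batch libraries alone, 1 of the 10 genes passed, HXK1, and 0.316% of all genes did.

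Outside the small colonies, the mean HXK1 level was highest in unfixed particles (1996 ± 52.4 CPM, SD, n = 2), followed by Abs600 2 (522 ± 189, SD, n = 2). Next came Abs600 0.5 (61.8 ± 17.0, SD, n = 2), big colonies (24.7 ± 16.7, SD, n = 3) and fixed unsorted particles (9.29 ± 3.38, SD, n = 3). The libraries of neighbouring groups in this order overlapped only for big colonies and fixed unsorted particles. The 2 small-colony libraries had no common place in the order. Replicate 2, at 185 CPM, lay between the libraries of the 2 batch densities. Replicate 4, at 18.7 CPM, lay within the range of big colonies.

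**Figure D2:**
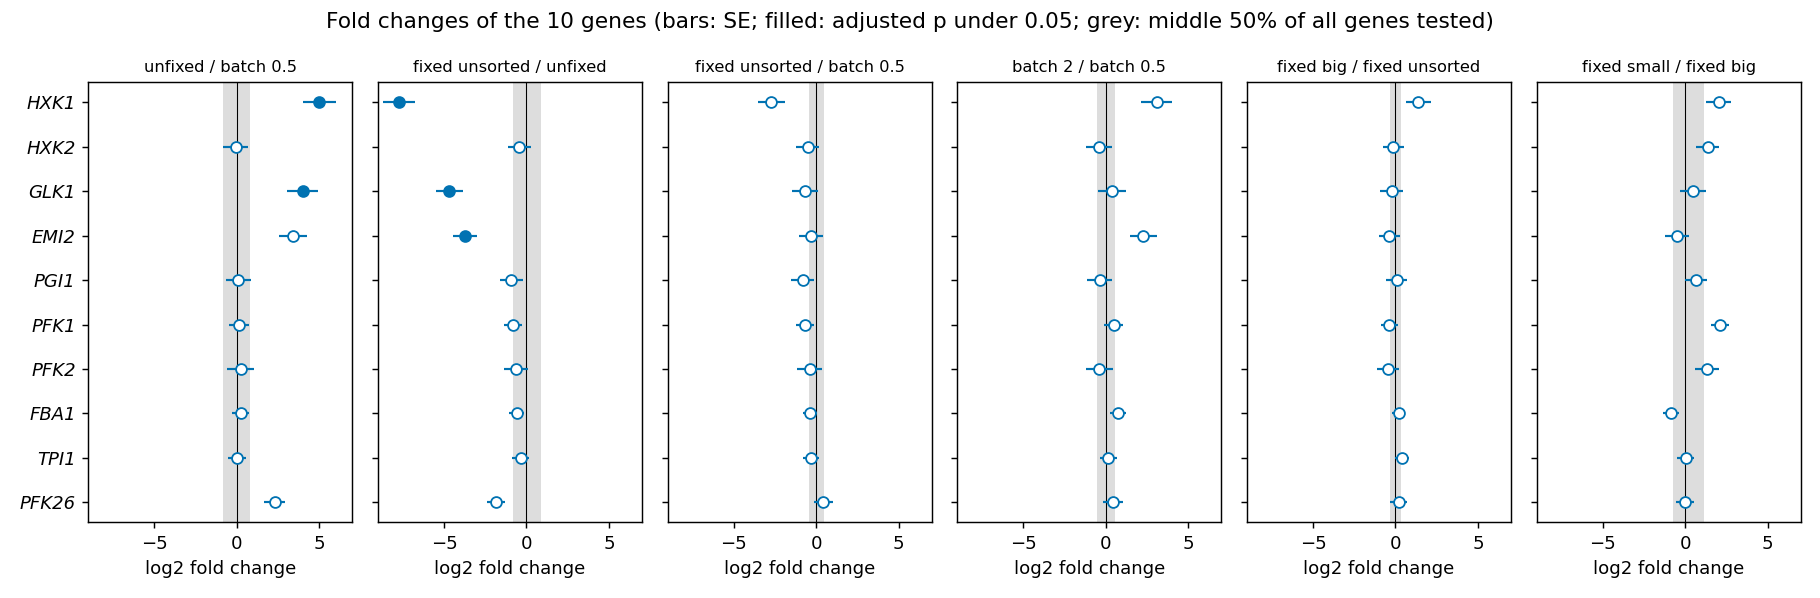
Log2 fold changes of the 10 genes in the 6 comparisons, with the first-named group over the second. Points are edgeR estimates, bars are 1 SE to each side, filled points passed an adjusted p of 0.05, and the grey band holds the middle 50% of all genes tested. HXK1, GLK1 and EMI2 lie to the right in unfixed particles over batch culture and to the left in fixed over unfixed particles, at -7.74, -4.67 and -3.74, and no point is filled in the last 4 panels.

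The make-up of the kinase tags can be read within a library, where scaling between libraries cancels. HXK2 held 51.5% and 57.5% of the tags of the 4 kinase genes at Abs600 0.5, and 46.0% to 75.5% in fixed unsorted particles. At Abs600 2 its share was 17.6% and 15.2%, and in unfixed particles 3.66% and 7.60%. HXK1 took 10.8% and 16.9% at Abs600 0.5 and 2.18% to 4.53% in fixed unsorted particles, against 48.2% and 47.2% at Abs600 2 and 45.5% and 49.4% in unfixed particles. HXK1 thus had the most tags of the 4 kinase genes in the denser batch cultures and in unfixed particles. HXK2 had the most in the sparser batch cultures and in every library of fixed unsorted particles and big colonies.

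The tags of HXK1 per tag of HXK2 were 12.4 and 6.50 in unfixed particles, 2.73 and 3.11 at Abs600 2, 0.209 and 0.294 at Abs600 0.5 and 0.0289 to 0.0984 in fixed unsorted particles. These ranges did not overlap. An exact two-sided permutation test of the log2 ratio gave p = 0.1 for fixed unsorted against unfixed particles and p = 0.333 for unfixed particles against Abs600 0.5, the smallest values that 3 against 2 and 2 against 2 libraries allow, so neither could reach 0.05. The share of GLK1 was 37.7% and 27.4% in unfixed particles and 6.84% and 16.4% at Abs600 2. That of EMI2 was 13.1% and 15.6% in unfixed particles and 27.3% and 21.2% at Abs600 2. The 4 kinase genes together held 3970 to 4466 CPM in unfixed particles, 822 and 1361 at Abs600 2, 436 and 463 at Abs600 0.5, and 199 to 358 in fixed unsorted particles.

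**Figure D3:**
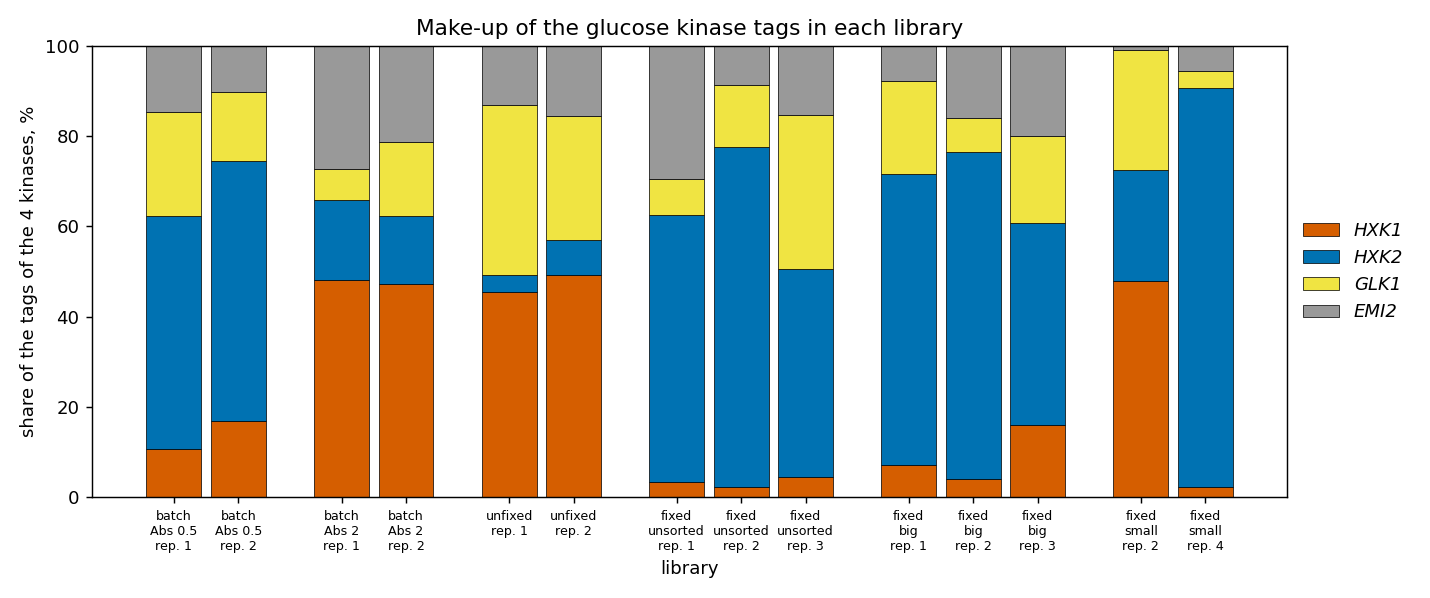
Share of HXK1, HXK2, GLK1 and EMI2 in the summed tags of the 4 genes, in percent, as 1 stacked bar per library. HXK2 has the largest share in each bar of the Abs600 0.5 cultures, fixed unsorted particles and big colonies. HXK1 and GLK1 fill most of the unfixed bars, where HXK2 has 3.66% and 7.60%, and the 2 small-colony bars differ, with 24.7% and 88.5% HXK2.

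The enzymes downstream of the kinases had no call in any of the 6 comparisons. FBA1, the aldolase gene, had the most tags of the 10 genes in every library, at 2211 to 11483 CPM. Its levels were 4607, 4565 and 4459 CPM in fixed unsorted particles, 6874 and 6889 in unfixed particles, 5822 and 5889 at Abs600 0.5, and 11483 and 8093 at Abs600 2. The fixed unsorted libraries lay below all 6 of those libraries, but no comparison passed, with log2 fold changes of -0.60 (SE 0.44) against unfixed particles and 0.74 (SE 0.49) for Abs600 2 over 0.5. TPI1, the triose phosphate isomerase gene, stood at 550 to 1816 CPM, with absolute log2 fold changes of at most 0.41 in the 6 comparisons.

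PGI1 stood at 373 to 453 CPM in unfixed particles, 383 and 388 at Abs600 0.5 and 137, 354 and 164 in fixed unsorted particles. PFK1 and PFK2, whose proteins form a complex, were close in most libraries. Tags of PFK1 per tag of PFK2 lay between 0.707 and 1.27 in 12 of the 14 libraries, and were 3.37 in Abs600 2 replicate 1 and 6.90 in small replicate 2. Between unfixed particles and Abs600 0.5, the log2 fold changes of PGI1, PFK1, PFK2, FBA1 and TPI1 ran from 0.04 to 0.24, with the widest 95% interval for PFK2 (-1.65 to 2.13). In fixed over unfixed unsorted particles they ran from -0.92 to -0.36. Neither comparison called any of these 5 genes.

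PFK26, whose product makes the activator of phosphofructokinase, stood at 1167 and 545 CPM in unfixed particles, 151 and 199 at Abs600 0.5, 232 and 239 at Abs600 2, and 272, 136 and 305 in fixed unsorted particles. Both unfixed libraries were above all 12 others, and the log2 fold change was 2.29 over Abs600 0.5 (SE 0.63, edgeR adjusted p 0.0777) and -1.85 in fixed over unfixed unsorted particles (SE 0.54, edgeR adjusted p 0.0582).

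Most of the PFK26 tags lay at a site that differs from the others. In the 12 libraries without small colonies, 94.0% of its tags were at 1 position, 9 nt after the ORF (IX:163269, minus strand, R64), where the genome itself goes on with 23 adenines. The main sites of HXK1 (65 nt after the ORF, VI:253527, minus strand, 41.4% of its tags) and of GLK1 (178 nt after the ORF, III:52518, plus strand, 72.5%) are followed by 1 and 3. The 30 bases around these sites, from the genome in transcript direction, are shown because they set the PFK26 site beside the more usual kind. The tag position is the last base before the capitals, and the capitals mark the adenines that follow it in the genome.
PFK26, 9 nt after the ORF: gtttaaaataatatgAAAAAAAAAAAAAAA
HXK1, 65 nt after the ORF: ttattcttatgagtgAtgcccttatgtttt
GLK1, 178 nt after the ORF: gaacaatatcatcggAAAcgggcctttggt

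The PFK26 positions 7 to 9 nt after the ORF took 92.3% to 99.1% of its tags in the 12 libraries and 90.6% in small replicate 2, but 19.9% in small replicate 4, where the median tag lay 266 nt after the ORF. Whether these tags stem from the poly(A) tail or from the adenines in the genome was not tested. The other PFK26 tags were few, at 69.5 and 34.4 CPM in unfixed particles and 6.11 and 8.43 CPM at Abs600 0.5. In a count chosen after seeing the data that leaves out positions 7 to 9, the log2 fold change of unfixed particles over Abs600 0.5 was 2.84 (edgeR adjusted p 0.163), and that of fixed over unfixed unsorted particles was -2.08 (edgeR adjusted p 0.173).

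None of the 10 genes passed the test in big colonies over fixed unsorted particles. The edgeR test called 0.0% of all genes, with 51 at an unadjusted p under 0.05 and none of the 10 among them, and DESeq2 also called 0. HXK1 had the largest difference, with 28.8, 6.26 and 39.0 CPM in big colonies, overlapping the unsorted range, and a log2 fold change of 1.40 (95% interval -0.31 to 3.10). HXK2 was at 256, 109 and 109 CPM, PGI1 at 368, 201 and 119 CPM and PFK2 at 134, 71.0 and 51.6 CPM. Big replicate 1 was the highest of its group for these 3 genes, and the median log2 fold change of the 10 was -0.03, against 0.00 over all genes tested.

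The 2 small-colony libraries did not share a pattern. HXK1 was at 185 CPM in replicate 2 and 18.7 in replicate 4, and GLK1 at 103 and 29.7. EMI2 went the other way, with 3.23 and 45.0 CPM. So did HXK2 with 95.5 and 716, PGI1 with 85.8 and 634 and PFK2 with 31.0 and 391. Apart from PFK1 and FBA1, replicate 2 lay above all 3 big libraries for HXK1, GLK1 and PFK26. It lay below all 3 for EMI2, HXK2, PGI1, PFK2 and TPI1. Replicate 4 lay above all 3 for HXK2, PGI1, PFK2 and TPI1 and below all 3 for PFK26. PFK1 was the only gene above all 3 big libraries in both, at 214 and 466 CPM against 94.6, 74.2 and 65.6, and FBA1 the only one below in both, at 3530 and 2211 CPM against 4282, 5469 and 5770. PFK1 had a log2 fold change of 2.12 (SE 0.54, edgeR adjusted p 0.0591) and FBA1 of -0.85 (SE 0.46, edgeR adjusted p 0.310).

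None of the 10 genes passed in small over big colonies, where 1.27% of all genes were called (0.561% higher and 0.706% lower) and 2 of the 10 were at an unadjusted p under 0.05. DESeq2 called 2 of the 10, HXK1 and PFK1, both higher, with 11% of all genes called. The median log2 fold change over all genes was 0.17 with TMM scaling and 0.35 with the DESeq2 size factors, and the median of the 10 genes was 0.57 with TMM. The calls over all genes split into 31 higher and 39 lower with TMM, and 47 higher and 30 lower with the size factors. Leaving out 1 small library, with the other assumed to vary like the remaining groups, gave different calls. Without replicate 2, HXK2, PFK1 and PFK2 rose and 1670 of 5681 genes were called. Without replicate 4, HXK1 and PFK1 rose, EMI2 fell and 1982 of 5600 genes were called. With any 1 big library left out, no gene was called.

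The tags of small replicate 2 sat at few positions. Of its 286 HXK1 tags, 217 were at a single position 47 nt inside the ORF, and of its 331 PFK1 tags, 258 were at the position 100 nt after the ORF.

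The distance of the tags from the end of the ORF gave a second readout, the 3′ end of the transcript. It was tested with limma in the 12 libraries without small colonies, over the 2095 genes that had 50 or more tags in every one of them, and 7 of the 10 genes entered (HXK2, PGI1, PFK1, PFK2, FBA1, TPI1 and PFK26). HXK1, GLK1 and EMI2 had fewer tags in at least 1 library. In unfixed particles the mean PGI1 tag lay at 83.7 ± 7.50 nt after the ORF (SD, n = 2), against 147 ± 3.70 nt (SD, n = 2) at Abs600 0.5, a shift of -63.2 nt (SE 13.8, limma adjusted p 0.0425). It lay at 139 ± 10.9 nt (SD, n = 3) in fixed unsorted particles, 54.9 nt further out than in unfixed ones (SE 12.6, limma adjusted p 0.0465). PGI1 was the only call among the 7 genes, where 4.87% of all genes were called in unfixed particles over Abs600 0.5 (4.44% nearer to the ORF and 0.43% further) and 6.25% in fixed over unfixed particles (0.668% nearer and 5.58% further). It passed in neither comparison with any 1 of its libraries left out (limma adjusted p 0.0512 to 0.203 and 0.0635 to 0.13).

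PGI1 tags inside the ORF differed between the same groups. In unfixed particles 4.01% and 3.71% of PGI1 tags lay inside the ORF, against 0.245% and 0.181% at Abs600 0.5 and 0.0% to 1.72% in fixed unsorted particles. With the mean taken only over tags after the ORF, a choice made after seeing the data, the shifts were -5.57 nt (limma adjusted p 0.95) and 6.08 nt (limma adjusted p 0.859), and 0.106% and 0.266% of all genes were called. Tags inside the ORF were also more common in unfixed particles for TPI1, at 2.04% and 2.06% against 0.126% and 0.193% at Abs600 0.5, and for FBA1, at 0.806% and 0.493% against 0.0484% and 0.0955%. The same direction held for HXK1, HXK2, GLK1, PFK2 and PFK26. EMI2 went the other way, at 4.50% and 1.23% in unfixed particles against 9.72% and 9.38% at Abs600 0.5. PFK1 did so too, at 1.52% and 0.0% against 2.05% and 2.60%.

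Between the batch densities the ends after the ORF lay nearer to it at Abs600 2. In the test over all tags, none of the 7 genes was called (3 at an unadjusted p under 0.05) where 0.382% of all genes were, and all 7 had a negative shift, as did 83.8% of all genes. The PFK1 shift in that test was -1.98 nt (SE 12.8, limma adjusted p 0.966). Over tags after the ORF only, a choice made after seeing the data, PFK1 had a shift of -56.9 nt, toward the ORF (SE 8.28, limma adjusted p 0.0265). No library was left out in turn for this measure. PFK1 was the only call among the 7, where 3.46% of all genes were called. Its mean end lay at 117 and 142 nt at Abs600 2 and at 183 and 189 nt at Abs600 0.5. FBA1 had a shift of -6.35 nt (SE 1.60, limma adjusted p 0.0577), PGI1 of -35.3 nt (SE 9.88, limma adjusted p 0.0738) and PFK2 of -56.0 nt (SE 20.5, limma adjusted p 0.107), and their libraries did not overlap between densities either.

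PFK1 tags at 2 of its sites differed between the densities. The site 100 nt after the ORF took 26.8% to 47.4% of PFK1 tags at Abs600 2, 7.79% to 12.3% at Abs600 0.5 and 6.15% to 16% in fixed unsorted particles. The site 237 nt after the ORF took 1.60% to 11.1% at Abs600 2, 22.1% to 23.1% at Abs600 0.5 and 10.2% to 24.9% in fixed unsorted particles. In small replicate 2 the nearer site held 77.9% and in small replicate 4 0.490%, with 0.302% and 27.8% at the farther one. The sequences around the near (VII:970671, minus strand, R64) and the far site (VII:970534, minus strand) are shown as above, with the tag position before the capitals.
PFK1, 100 nt after the ORF: aagacttatttatgtAtctgttgtttttct
PFK1, 237 nt after the ORF: catatttctaatcctAAccattagatatac

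**Figure D4:**
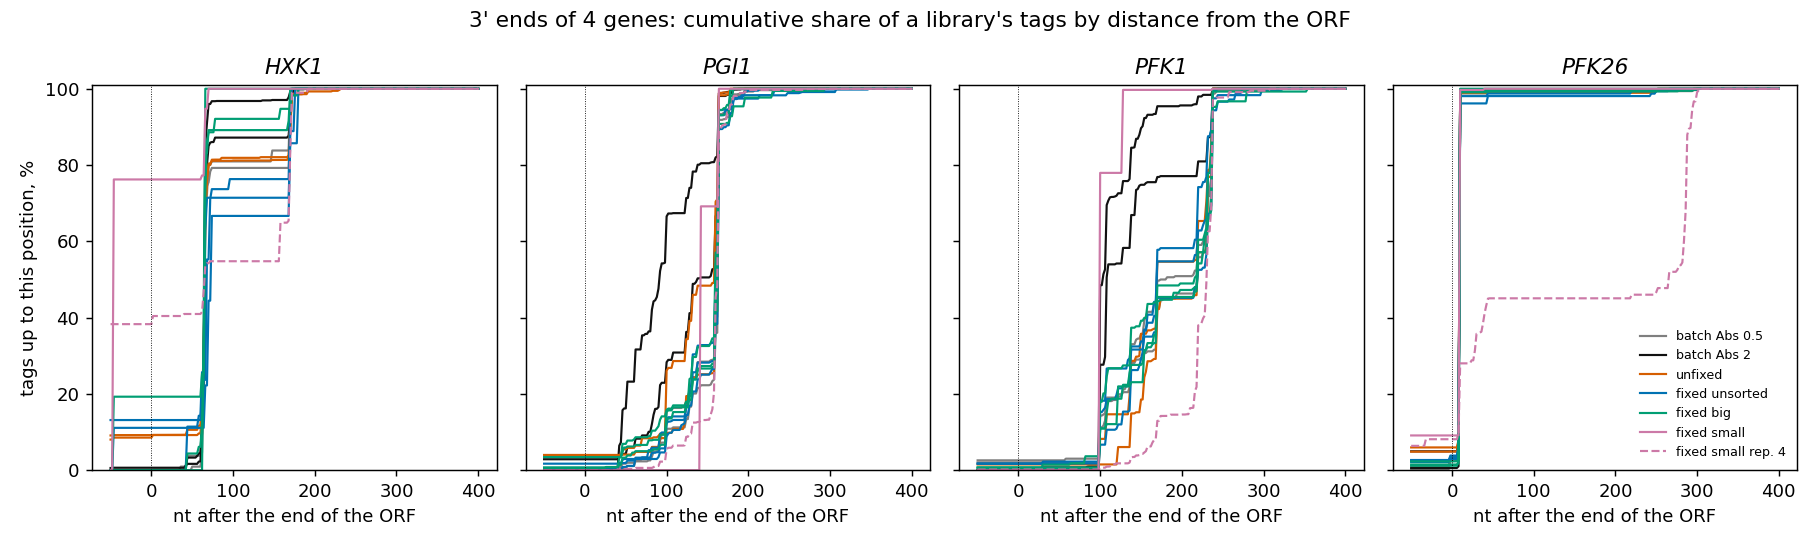
Cumulative share of the tags of HXK1, PGI1, PFK1 and PFK26, in percent, by distance in nt after the end of the ORF, with 1 line per library coloured by group and small replicate 4 dashed. In PFK1 and PGI1 the lines of the Abs600 2 cultures rise nearer to the ORF. In PFK26 all lines jump at 9 nt after the ORF except that of small replicate 4. In HXK1 the small replicate 2 line has risen to 76.2% by the end of the ORF.

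Lists of related genes were read beside the 10. Of 4 genes listed for trehalose 6-phosphate, a known inhibitor of hexokinase in yeast, 1 rose in unfixed particles over Abs600 0.5 and none fell. There 0.76% of all genes tested rose, and the median log2 fold change of the 4 genes was 4.63. The gene that rose was TPS1, the synthase subunit (log2 4.66, SE 0.88, edgeR adjusted p 0.0128). In fixed over unfixed unsorted particles 3 of the 4 fell, where 2.46% of all genes tested did, with a median of -4.33, namely TPS1 (log2 -4.04, SE 0.72), the phosphatase gene TPS2 (-4.61, SE 1.03) and the regulatory subunit gene TSL1 (-7.38, SE 1.57). Of 6 genes listed for side branches at or near glucose 6-phosphate, PGM2, which codes for phosphoglucomutase, rose in unfixed particles (log2 5.83, SE 0.98, edgeR adjusted p 0.0093). PGM2 (-7.49, SE 0.89) and UGP1, of UDP-glucose synthesis (-3.76, SE 0.82), fell in fixed over unfixed unsorted particles, and the other 4 did not pass. TPS1 and PGM2 in the latter comparison passed with any 1 library left out. The TPS1 call in unfixed particles failed with any 1 left out (edgeR adjusted p 0.068 to 0.178), as did that of UGP1 (0.0527 to 0.132). PGM2 in unfixed particles passed only without unfixed replicate 2, TPS2 only without fixed unsorted replicate 1 and TSL1 only without fixed unsorted replicate 3.

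Of 9 genes of lower glycolysis none passed in unfixed particles over Abs600 0.5, and TDH1, a minor isoform of glyceraldehyde 3-phosphate dehydrogenase, fell in fixed over unfixed unsorted particles (log2 -4.53, SE 1.00, edgeR adjusted p 0.0137), a call that held only without fixed unsorted replicate 3 (0.0494) when 1 library was left out. PGK1, phosphoglycerate kinase, stood at 365 and 1770.3 CPM in small replicates 2 and 4 and at 151, 112 and 111 in big colonies. It rose in small over big colonies (log2 3.10, SE 0.61, edgeR adjusted p 0.0350), at 3.82 without small replicate 2 and 1.55 without small replicate 4 (edgeR adjusted p 0.000225 and 0.0183), and failed with any 1 big library left out (0.11 to 0.126). No gene passed in the 6 comparisons among the 4 tested of 5 genes listed for fructose bisphosphate turnover, a list that includes PCK1, of gluconeogenesis. The same held for 20 genes of glucose sensing and repression, 4 activators of glycolytic genes and 3 stress activators. MIG1, SNF1 and REG1, of glucose repression, and MSN2 and MSN4, of the stress response, were among them. No list had a call in big colonies over unsorted particles, in fixed unsorted particles over Abs600 0.5 or in Abs600 2 over 0.5.

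Among 5022 genes with a mean of at least 5 CPM, the profiles most like those of the kinase genes over the 12 libraries were picked by Pearson's r of log2 CPM. For HXK1 they were COX5B (r = 0.975), a cytochrome c oxidase subunit isoform, the glycogen phosphorylase gene GPH1 (0.973) and GSP2 (0.967). For GLK1 they were BXI1 (0.984), YGP1 (0.973) and the glycogen branching enzyme gene GLC3 (0.948), and for EMI2 the nicotinamidase gene PNC1 (0.979), CUE5 (0.965) and YLR152C (0.958). The best for HXK2 were lower, with STP1 (0.875), AMN1 (0.867) and PCL5 (0.856). GPH1 was at 2568 and 1921 CPM in unfixed particles and at 8.86 to 12.2 CPM in fixed unsorted particles. Within the 10, HXK1 correlated at 0.943 with EMI2 and 0.864 with GLK1 but 0.329 with HXK2, and HXK2 at 0.829 with PGI1. The points share libraries and groups, and these values are descriptions.

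A set of 5 motifs of factors known to act on these genes was searched on both strands from 250 bp before to 50 bp after the first base of each ORF, in 6001 genes. AGGGG, the core bound by Msn2 and Msn4, was in the windows of GLK1 and EMI2 among the 10 genes and in 21.6% of all windows. GCGGGG, the core bound by Mig1, was in that of GLK1 and in 2.57% of all. CTTCC, of Gcr1, was in 5 of the 10 (HXK1, GLK1, EMI2, PFK2 and FBA1) and in 46.4% of all. ACACCCA, part of the Rap1 motif, was in the window of FBA1 and in 2.25% of all. The FBA1 match of ACACCCA lies inside the ORF, not before it. CACGTG, the E box of Tye7, was in none of the 10 and in 2.92% of all. The stretches with AGGGG are shown for GLK1 (III:50651-50680, plus strand, R64, 3 matches) and EMI2 (IV:1476633-1476662, minus strand, 1 match), the members that hold it. HXK1, with the largest fall in fixed over unfixed particles, has no match in its window, and 2 of 10 is near the share over all windows. Capitals mark AGGGG or its reverse complement.
GLK1, 187 to 158 bp before the ORF: gtcaaCCCCTttcAGGGGgcCCCCTatctt
EMI2, 186 to 157 bp before the ORF: atgcttgcgatgcAGGGGggggaaacatgt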

How the data were processed

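The authors deposited 1 table of raw tag counts, not normalized, with 1 row for each of 542908 stranded genome positions and 1 column per library. CASAVA 1.8.2, GSNAP and the builds R64 and sacCer3 are named per the submitters' processing notes, without their roles. Duplicate removal and position filters are not given in the sources used here. Tags were summed per gene on the strand opposite to the table's, within the ORF and the 400 nt beyond its end, cut short where a further gene began, with RefSeq R64 positions. Near 700 isolated genes, 87.6% to 95.0% of tags then lay on the transcript strand. The submitters excluded small replicates 1 and 3 for low quality.

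Gene counts were tested with edgeR 4.0.16 (quasi-likelihood, robust, TMM, filterByExpr), fitted once to all 14 libraries and 6 groups with 8 residual degrees of freedom, Benjamini-Hochberg adjustment and a threshold of 0.05. Standard errors are the log2 fold change over the square root of F. Positions were tested with limma 3.58.1, weighted by tags up to 200. DESeq2 1.42.0 was an alternative. Scripts were tested on simulated data. Other software was R 4.3.3, Python 3.11.15, pandas 2.3.3, numpy 2.4.6, scipy 1.17.1 and matplotlib 3.10.9. The labels describe them as biological replicates, and replicate pairs differed by far more than counting error. Without molecular identifiers, counting intervals cover counting error only. Members, lists and tests were chosen with earlier results of these data known. All 10 genes, up to 3 called genes per list and comparison, and 3 profile neighbours per kinase gene are named. The genes named from the lists in which no gene passed were chosen afterwards. Promoter windows were read from the genome.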

Additional observations from a re-analysis of the deposited data

Results flagged for a closer look

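Small replicate 3, which the submitters excluded for low quality, held 725 HXK1 tags, 140 GLK1 tags, 615 PGI1 tags and 278 PFK2 tags. As shares of its gene tags these were 962.7 per 1000000 for HXK1 (95% exact Poisson interval 893.9 to 1035), 185.9 for GLK1 (156 to 219), 816.6 for PGI1 (753 to 884) and 369.2 for PFK2 (327 to 415). Each interval lay above the highest of the 3 fixed unsorted libraries, which were at most at 13.4, 100.8, 286.2 and 149.1 per 1000000 for the same genes, and that is why they are listed. The same library lay below the lowest of the 3 for HXK2 (33.2, interval 21.5 to 49, against 132.7), PFK1 (1.33 against 79.3), TPI1 (534 against 620) and PFK26 (59.8 against 109.7). Its tags sat at few positions. Of the GLK1 tags 138 were at a single position, as were 273 of the PFK2 tags, 343 of the HXK1 tags and 249 of the PGI1 tags. The intervals cover counting error only, and the part of the low quality in these levels was not tested.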

How the results depend on the processing

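Over all 10 genes and comparisons, 399 of 436 fold changes under other settings kept their sign and their side of the threshold, 20 passed only there, 2 passed only in the reported fit and 15 changed sign. With 1 library left out, 243 of 290 kept both, 6 passed, 11 no longer passed and 30 changed sign. Of the 338 shifts of 3′ ends, 28 changed sign, 14 no longer passed, 8 passed and the rest kept both. The cause was not tested unless given.

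For unfixed particles over Abs600 0.5, 2 of the 10 genes were called, 3 with DESeq2's size factors and with no filter on low counts, and 4 with DESeq2, with only these 2 groups, with the 12 libraries without small colonies and with a replicate block on those 12. Against Abs600 2 it was 0, and with 1 library left out 0. HXK2 changed sign to 0.018 with DESeq2 and with its size factors and to 0.35 against Abs600 2, where PFK1 was at -0.35, FBA1 at -0.51 and TPI1 at -0.13. With 1 library left out, log2 fold changes ran from -0.58 to 0.30 for HXK2, -0.052 to 0.23 for PGI1, -0.12 to 0.31 for PFK1 and -0.045 to 0.10 for TPI1. For fixed over unfixed unsorted particles, 3 genes were called, 4 under the same settings except no filter, and 1 to 3 with 1 library left out, where HXK2 ran from -0.88 to 0.087. Against Abs600 2, 1 gene was called in fixed unsorted particles. For small over big colonies it was 1 with the size factors, 2 with DESeq2 and 0 to 3 with 1 library left out, and for the batch densities 1 with only these groups.

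Over all genes, unfixed particles over Abs600 0.5 had 107 calls, 403 with DESeq2, 984 with only the 2 groups, 677 with 12 libraries, 598 with the replicate block, 41 against Abs600 2 and 1 to 28 with 1 library left out. Fixed over unfixed particles had 323, and 647, 835, 1093, 845 and 36 to 190 in the same order without the Abs600 2 culture. Small over big colonies had 70, 609 with DESeq2, and 0 both with only the 2 groups and with the excluded small libraries added, and 0 to 1982 with 1 library left out. Fixed unsorted particles over Abs600 0.5 had 0, 1 with DESeq2 and 4 against Abs600 2, and the batch densities 0, 6 with DESeq2 and 16 with only these groups.

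Called members with moved 3′ ends were 0 in unfixed particles over Abs600 0.5 with a 200 nt window, with the replicate block and with tags after the ORF only, and 0 to 2 with 1 library left out. In fixed over unfixed particles they were 2 with the 200 nt window (PFK2 and TPI1, adjusted p 0.0322 and 0.0377, while PGI1 was at 0.0631), 0 with tags after the ORF only and 0 to 2 with 1 library left out. For the batch densities they were 1 with tags after the ORF only and 0 to 1 with 1 library left out. There the PFK1 shift was 87.1 nt with the 200 nt window, which leaves out its site 237 nt after the ORF, and -15.5 to 11.5 nt with 1 library left out, and the PFK26 shift was -96.1 to 0.55 nt. Over all genes, 102 ends moved in unfixed particles over Abs600 0.5, 66 with 100 tags in each library, 2 with tags after the ORF only and 54 to 329 with 1 library left out. In fixed over unfixed particles 131 moved, 86, 5 and 90 to 331 in the same order, and 83 in 14 libraries. Between the densities 8 moved, 13, 65 and 1 to 191 in the same order, and 4 with the replicate block.

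Deviations from the group means correlated at -0.171 to 0.206 in 21 pairs of libraries with the same replicate number. In the 36 other pairs they correlated at -0.257 to 0.171. In groups of 2 libraries the 2 deviations mirror each other, so most of these pairs cannot show whether the numbers pair the libraries. Between fixed unsorted particles and big colonies, replicates 1, 2 and 3 gave -0.171, 0.026 and 0.206. Whether libraries of the same number shared a culture was not settled. For small over big colonies alone, no paired analysis was possible because they share 1 number only. Depth is low for HXK1 in fixed unsorted replicate 2, with 9 tags, and for EMI2 in small replicate 2, with 5.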
